A study of Mus musculus with 7 samples.

Results

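The 4 Hox clusters of the mouse encode homeodomain transcription factors, and the genes of a cluster lie in the order in which they pattern the body axis, from anterior (low numbers) to posterior (high numbers). Genes of the same number in different clusters are paralogues. In the developing kidney the Hox11 paralogues are required in the mesenchyme for outgrowth of the ureteric bud, and in vitro they act with Eya1 and Pax2 on Six2 and Gdnf; the Hox10 paralogues act in the renal stroma. TALE homeodomain proteins of the Meis, Pbx and Pknox families bind DNA together with Hox proteins. Of 38 Hox genes listed for study, ordered by cluster and paralogue number, 33 had at least 1 probe set annotated to them alone, among 18193 genes measured. Hoxa6, Hoxc11 and Hoxc12 had none in the annotation used here, and Hoxb8 and Hoxd4 had only probe sets shared with Hoxb7 and Hoxd3.

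The series holds 7 Affymetrix expression arrays of mouse. At E12.5 (E for embryonic day), ureteric bud tips, ureteric bud stalks and metanephric mesenchyme were microdissected and hybridised as 2 biological replicate arrays each. The ureteric bud is the epithelial tube that branches into the mesenchyme. A single array held mIMCD-3, an established epithelial line of the mouse inner medullary collecting duct, as a freshly isolated subclone grown to confluency. The labels give no strain, sex or number of pooled kidneys for the tissues, and the line is 1 clone on 1 array added later, so its biology and its array cannot be told apart. Nothing in the labels says which embryos the replicates came from, so p-values measure the spread between these arrays. All levels are log2 intensity after robust multichip analysis (RMA), each difference is given ± the standard error (SE) from limma on the same scale, and genes were called where the Benjamini-Hochberg value, adjusted over all 18193 genes, was below 0.05. The median gene lay between 6.57 and 6.80 on the arrays; RMA gives no detection calls, folds of dim genes are compressed, and levels are compared only between arrays, not between genes.

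The dissected tissues were checked against marker genes. All 5 measured tip markers (Ret, Wnt11, Etv4, Etv5 and Slco4c1) were higher in tip than in stalk and in mesenchyme, and 7 of 8 nephron progenitor markers were lower in tip than in mesenchyme. Of 5 stalk markers (Wnt7b, Wnt9b, Upk3a, Upk1b and Krt7) 0 passed between tip and stalk in limma, with 1 higher and 0 lower if p under 0.05 was left unadjusted. The summed intensity of 7 renal stroma markers was 1379 to 1673 in tip, 10685 to 11057 in stalk and 10984 to 11492 in mesenchyme, so the stalk arrays carried stroma signal close to that of mesenchyme. Tbx18, which marks ureteric mesenchyme, had 6.43 and 5.48 in tip, 11.16 and 10.93 in stalk and 9.77 and 9.51 in mesenchyme. Of 4 such markers, 2 (Tbx18 and Bmp4) were higher in stalk than in mesenchyme, 0 were lower and 2 were not called. Acta2, not called, went the other way (stalk minus mesenchyme -0.64 ± 0.15, adjusted p = 0.0527 in limma). The sum of 6 ureteric epithelium markers was 16279 to 17806 in tip, 12042 to 12088 in stalk and 354 to 400 in mesenchyme. These are bulk tissues, in which fewer cells of a type and less RNA per cell cannot be told apart. In mIMCD-3, 5 of 6 epithelium markers lay above the array median but 0 of 5 collecting duct markers (Aqp2, Aqp3, Scnn1a, Scnn1b, Elf5) did.

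**Figure D1:**
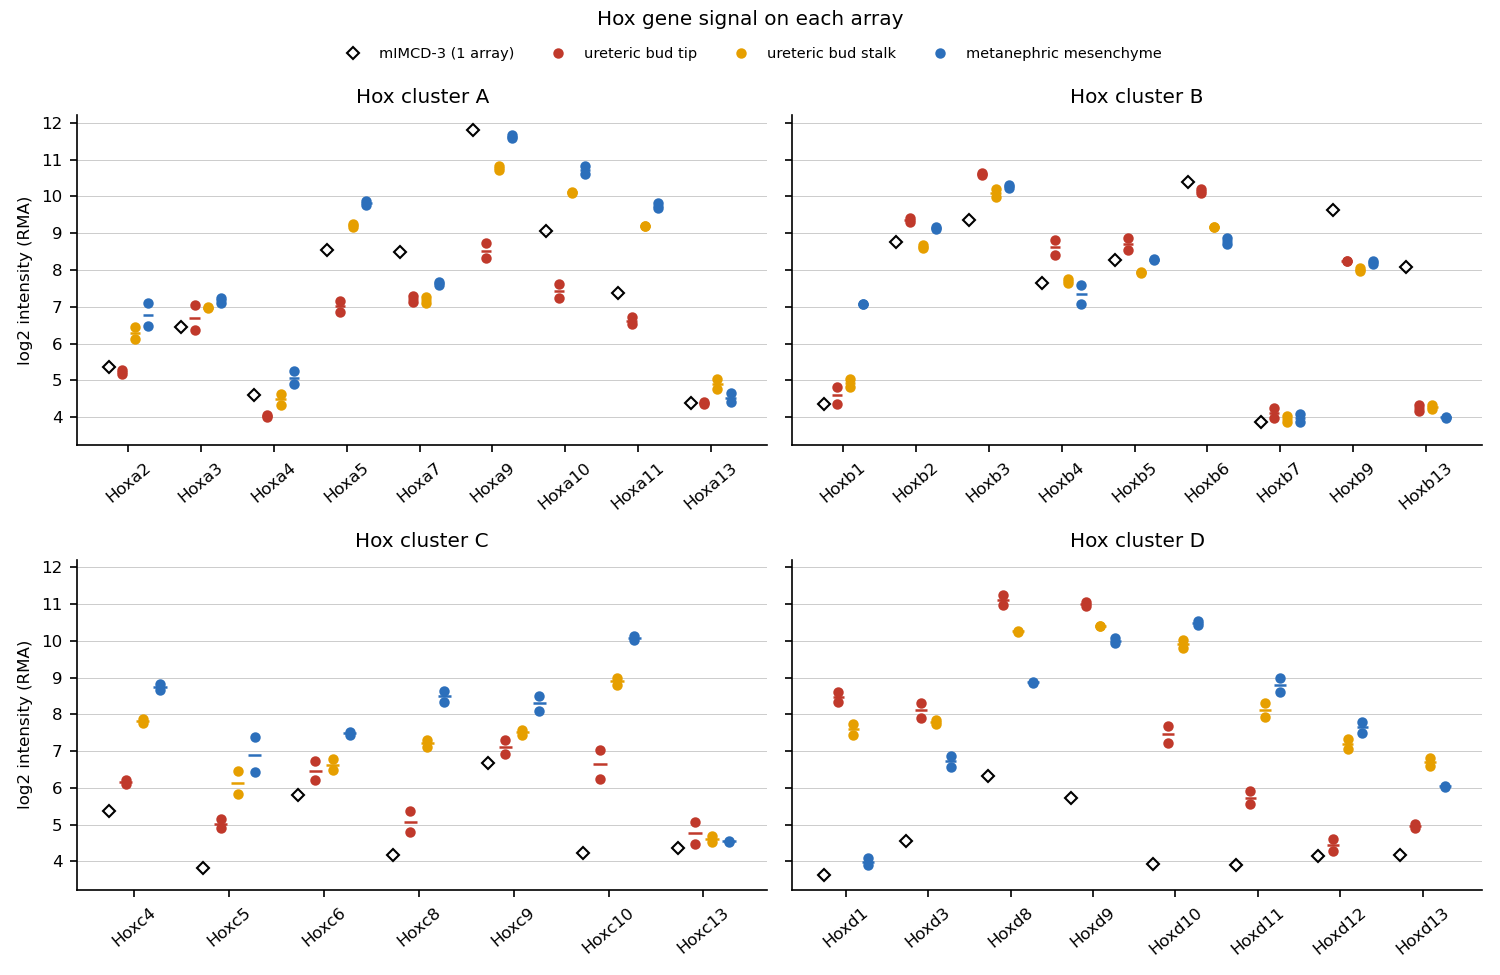
Log2 intensity of the 33 Hox genes on each array, one panel per cluster and ordered by paralogue number; the diamond is mIMCD-3, dots are the 2 arrays of tip, stalk and mesenchyme (left to right) and dashes their means. Hoxa9 to Hoxa11, Hoxc8 to Hoxc10 and Hoxd10 to Hoxd13 sit lowest in tip among the tissues, Hoxd1 to Hoxd9 sit highest in tip, and the cluster D diamonds all lie at 6.33 or below.

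The tip differed from the mesenchyme in most Hox genes. Of 33 measured, 17 were lower in tip and 6 higher, where 8.37% of all genes were lower, 7.38% higher and 15.7% either. The median difference of the Hox genes was -1.01, against 0.02 over all genes. The counts were uneven between clusters. In cluster A 6 of 9 genes were lower and 0 higher, in cluster C 6 of 7 were lower and 0 higher, in cluster B 2 of 9 were higher and 1 lower, and in cluster D 4 of 8 were higher and 4 lower. By position, 9 of 14 posterior genes (paralogues 9 to 13) were lower and 1 higher, 6 of 12 central genes (4 to 8) were lower and 3 higher, and 2 of 7 anterior genes (1 to 3) were lower and 2 higher. On the tip arrays of the 23 called genes no value overlapped those of mesenchyme, but with 2 arrays a group this largely follows from the call. Over all 33 Hox genes, called or not, 20 lay below and 11 above mesenchyme without overlap. No share over all genes is given here, so the separation adds nothing to the calls. Beside the Hox genes, most markers of some further cell types fell in tip: 5 of 5 of endothelium (median -1.94), 3 of 4 of blood and macrophages (median -2.47) and 7 of 7 of renal stroma (median -2.96). The remaining blood and macrophage marker, Ptprc, was higher in tip (1.22 ± 0.29, adjusted p = 0.0258). Of 3 neuron and neural crest markers 1 was lower and 0 higher. The part of these markers in the Hox differences was not tested.

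The Hox11 and Hox10 paralogues had low tip values. Hoxa11, which with its paralogues is required for bud outgrowth, had 6.71 and 6.52 in tip, 9.20 and 9.18 in stalk and 9.82 and 9.67 in mesenchyme. It was lowest on both tip arrays, with a tip minus mesenchyme difference of -3.13 ± 0.13 (adjusted p = 6.05e-06), or 8.77-fold lower. Hoxd11, its cluster D paralogue, had 5.91 and 5.56 in tip, 8.31 and 7.92 in stalk and 8.995 and 8.60 in mesenchyme, a difference of -3.07 ± 0.21 (adjusted p = 4.18e-05). Hoxa11os, transcribed antisense to Hoxa11, had 5.90 and 5.88 in tip, 8.05 and 7.97 in stalk and 9.10 and 8.80 in mesenchyme and a difference of -3.06 ± 0.14 (adjusted p = 9.18e-06); its other probe set differed by 0.07.

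Hoxa10, a regulator of genital tract and limb patterning, had 7.63 and 7.23 in tip, 10.08 and 10.13 in stalk and 10.83 and 10.60 in mesenchyme. Both tip values lay over 2 log2 units below every stalk and mesenchyme value, and the tip minus mesenchyme difference was -3.29 ± 0.17 (adjusted p = 1.23e-05). Its other probe set stayed between 3.47 and 3.86 on the 6 tissue arrays, and the mean of both gave -1.59. Hoxc10, a gene of the lumbar region and hindlimb, had 7.03 and 6.26 in tip, 8.99 and 8.81 in stalk and 10.12 and 10.02 in mesenchyme. Its difference of -3.43 ± 0.24 (adjusted p = 4.85e-05) was the lowest of the 33 genes, and its 2 tip arrays were the furthest apart of any Hox gene in tip. Hoxd10, which patterns the lumbar spinal cord, had 7.69 and 7.22 in tip, 10.02 and 9.81 in stalk and 10.55 and 10.44 in mesenchyme and a difference of -3.04 ± 0.18 (adjusted p = 2.42e-05).

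Hoxa9, Hoxd12, Hoxc8 and Hoxa5 were also lower in tip than in mesenchyme. Hoxa9, best known from haematopoiesis, had 8.72 and 8.33 in tip, 10.83 and 10.73 in stalk and 11.58 and 11.66 in mesenchyme, a tip minus mesenchyme difference of -3.09 ± 0.16 (adjusted p = 1.29e-05). The other Hoxa9 probe set gave a smaller difference of -1.65. Hoxd12, a gene of limb and urogenital patterning, had 4.61 and 4.30 in tip, 7.32 and 7.06 in stalk and 7.79 and 7.50 in mesenchyme, a difference of -3.19 ± 0.18 (adjusted p = 1.65e-05). Its tip values lay below the array median by over 2 log2 units. Hoxc8, a gene of the thoracic skeleton, had 5.36 and 4.81 in tip, 7.30 and 7.12 in stalk and 8.63 and 8.34 in mesenchyme and a difference of -3.40 ± 0.21 (adjusted p = 2.5e-05), 10.6-fold lower. Hoxa5, which acts in lung and cervical patterning, had 7.16 and 6.86 in tip, 9.26 and 9.18 in stalk and 9.87 and 9.76 in mesenchyme and a difference of -2.81 ± 0.15 (adjusted p = 1.29e-05); the mean over its probe sets gave -1.85. For each of these 4 genes the stalk lay nearer to mesenchyme than to tip.

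Further cluster C genes and Hoxa2 were lower in tip as well. Hoxc4 had 6.22 and 6.12 in tip, 7.86 and 7.77 in stalk and 8.67 and 8.81 in mesenchyme, with a difference of -2.57 ± 0.13 (adjusted p = 1.19e-05) and 3 separate groups. Hoxc5 had 4.90 and 5.15 in tip, 6.45 and 5.83 in stalk and 7.38 and 6.42 in mesenchyme; its mesenchyme arrays differed by 0.96, the widest gap between replicates of a Hox gene, and its difference was -1.87 ± 0.33 (adjusted p = 0.00595), or -0.89 as the mean over its probe sets. Hoxc9 had 6.93 and 7.30 in tip, 7.45 and 7.57 in stalk and 8.10 and 8.50 in mesenchyme, a difference of -1.19 ± 0.19 (adjusted p = 0.00348). Hoxa2, known from the hindbrain and the branchial arches, had 5.29 and 5.17 in tip, 6.46 and 6.13 in stalk and 7.10 and 6.46 in mesenchyme and a difference of -1.55 ± 0.22 (adjusted p = 0.00216). Hoxc6 (-1.01) and Hoxa4 (-1.05) had the smallest called decreases, and Hoxa4 lay below the array median on every array.

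Hoxb1 had a stalk level near that of tip. Known for the identity of hindbrain segments, it had 4.36 and 4.82 in tip, 4.83 and 5.05 in stalk and 7.08 and 7.08 in mesenchyme. Both mesenchyme arrays stood above their array median while all 4 bud arrays stood below it. The difference from mesenchyme was -2.49 ± 0.18 (adjusted p = 5.55e-05) in tip and -2.15 ± 0.18 (adjusted p = 0.000379) in stalk. It was the single called member of cluster B that was lower in bud, and neighbouring genes of that cluster had other patterns.

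**Figure D2:**
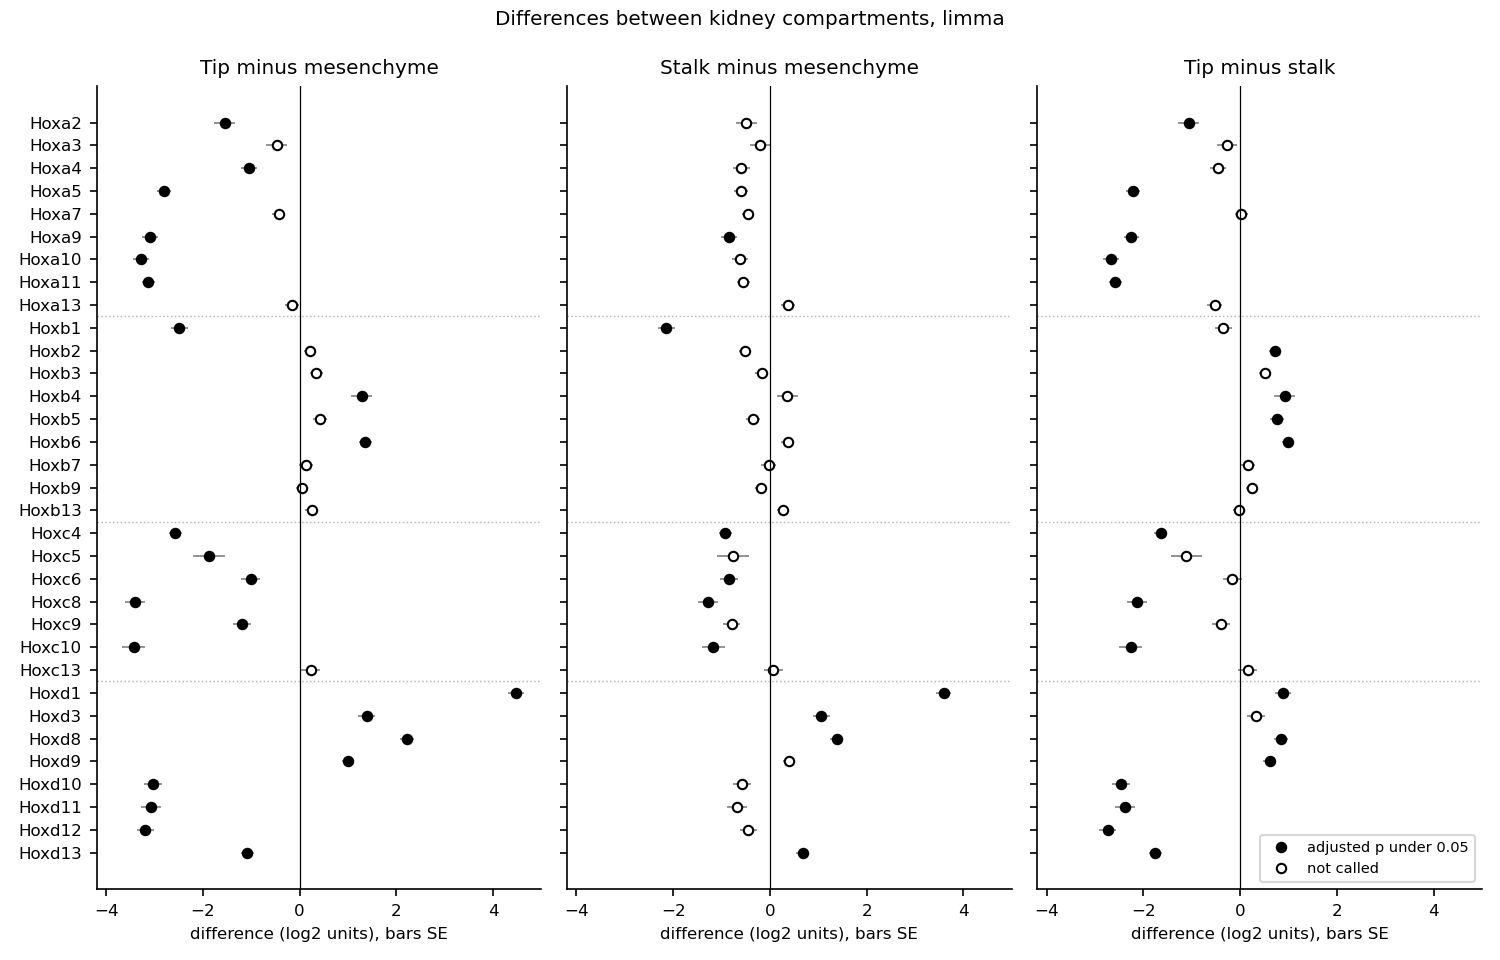
Differences between compartments for the 33 Hox genes in log2 units with SE bars, in cluster order with dotted lines between clusters; filled points have an adjusted p under 0.05 in limma. In cluster D the tip minus mesenchyme difference is 1.00 for Hoxd9 and -3.04 for the adjacent Hoxd10.

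Cluster D was split by position. Hoxd1, Hoxd3, Hoxd8 and Hoxd9 were higher in tip than in mesenchyme, while Hoxd10, Hoxd11, Hoxd12 and Hoxd13 were lower. On the chromosome Hoxd9 and Hoxd10 are adjacent. Promoter windows of Hoxd1, the gene with the largest increase, of Hoxd8 and Hoxd9 on the higher side and of Hoxd10 on the lower side are shown because the direction turned between the last 2. They come from RefSeq in build GRCm38.p6, plus strand, and hold 250 bases before and 50 after the annotated start. The windows are chr2:74762730-74763029 for Hoxd1, chr2:74704365-74704664 for Hoxd8, chr2:74697513-74697812 for Hoxd9 and chr2:74691641-74691940 for Hoxd10, and capitals mark matches to any of the motifs named after them.
Hoxd1: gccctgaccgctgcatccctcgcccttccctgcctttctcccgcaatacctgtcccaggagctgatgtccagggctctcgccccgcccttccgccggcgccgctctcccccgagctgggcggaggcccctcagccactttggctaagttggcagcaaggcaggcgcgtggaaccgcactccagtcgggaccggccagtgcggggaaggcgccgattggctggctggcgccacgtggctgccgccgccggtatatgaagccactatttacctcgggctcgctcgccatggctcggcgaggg
Hoxd8: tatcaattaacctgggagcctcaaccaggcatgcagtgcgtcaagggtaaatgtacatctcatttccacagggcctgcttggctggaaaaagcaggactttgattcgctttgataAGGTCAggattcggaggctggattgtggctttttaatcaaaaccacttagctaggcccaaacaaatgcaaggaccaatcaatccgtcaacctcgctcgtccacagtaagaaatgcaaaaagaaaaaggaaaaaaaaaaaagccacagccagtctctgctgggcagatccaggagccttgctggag
Hoxd9: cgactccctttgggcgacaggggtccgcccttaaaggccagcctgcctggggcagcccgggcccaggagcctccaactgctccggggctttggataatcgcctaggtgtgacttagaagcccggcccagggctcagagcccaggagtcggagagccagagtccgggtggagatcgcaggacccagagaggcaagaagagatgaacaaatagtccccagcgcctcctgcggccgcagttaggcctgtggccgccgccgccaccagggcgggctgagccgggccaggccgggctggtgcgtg
Hoxd10: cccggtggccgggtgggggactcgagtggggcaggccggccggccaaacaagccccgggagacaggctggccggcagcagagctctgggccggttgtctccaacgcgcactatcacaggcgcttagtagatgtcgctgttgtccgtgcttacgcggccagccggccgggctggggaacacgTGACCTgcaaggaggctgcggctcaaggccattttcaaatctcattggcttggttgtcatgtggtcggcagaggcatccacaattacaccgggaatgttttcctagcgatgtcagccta

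The windows were searched on both strands for TATAAA (a core promoter element), TGACAG (bound by Meis proteins), TAATTA (a homeodomain core) and AGGTCA (a core letter string of nuclear receptor sites, retinoic acid receptors among them), none of which overlapped in these windows. AGGTCA occurred once in the Hoxd8 window and once, on the other strand, in the Hoxd10 window, and the other motifs were absent from all 4 windows. Among 24 windows of 22 listed Hox genes, 7 held AGGTCA, on both sides of the split, against 16.3% of 32851 windows of all genes. TATAAA was in 4 of 24 (13.6% of all), TGACAG in 2 of 24 (19.2% of all) and TAATTA in 2 of 24, both of Hoxd11 (5.3% of all). The Hox windows held a median of 14.5 CpG dinucleotides, against 7 over all windows, with 29 in Hoxd1, 6 in Hoxd8, 20 in Hoxd9 and 22 in Hoxd10. A match describes letters in the window and is not a measured binding site.

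Hoxd1, which in mouse sensory neurons shapes pain circuits, had 8.61 and 8.34 in tip, 7.73 and 7.45 in stalk and 4.09 and 3.91 in mesenchyme. All 4 bud arrays were above the array median and both mesenchyme arrays were below it. It was 22.2-fold higher in tip (4.47 ± 0.16, adjusted p = 3.54e-06), 12.1-fold higher in stalk (3.59 ± 0.16, adjusted p = 2.04e-05), and higher in tip than in stalk (0.88 ± 0.16, adjusted p = 0.0127). Hoxd8, a trunk-patterning gene, had 11.23 and 10.96 in tip, 10.26 and 10.25 in stalk and 8.86 and 8.89 in mesenchyme, again with 3 separate groups. Its tip minus mesenchyme difference was 2.22 ± 0.14 (adjusted p = 2.65e-05), and the other probe set gave 1.82.

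Hoxd3, needed for the upper cervical vertebrae, had 8.32 and 7.91 in tip, 7.86 and 7.73 in stalk and 6.88 and 6.58 in mesenchyme. Tip and stalk were close and both lay above mesenchyme, by 1.39 ± 0.18 (adjusted p = 0.00134) and 1.06 ± 0.18 (adjusted p = 0.0137). The 2 probe sets shared by Hoxd4 and Hoxd3 had tip minus mesenchyme differences of 1.38 and 1.70, and cannot be given to either gene. Hoxd9, which acts in forelimb and lumbar patterning, had 11.06 and 10.95 in tip, 10.40 and 10.40 in stalk and 10.07 and 9.94 in mesenchyme. Its differences were 1.00 ± 0.13 (adjusted p = 0.00115) for tip minus mesenchyme and 0.61 ± 0.13 (adjusted p = 0.0215) for tip minus stalk. At the far end Hoxd13, a gene of digits and the lower urogenital tract, had 5.01 and 4.91 in tip, 6.60 and 6.82 in stalk and 6.03 and 6.04 in mesenchyme. It was the one member highest in stalk among those called, with 0.67 ± 0.13 (adjusted p = 0.0272) for stalk minus mesenchyme and -1.75 ± 0.13 (adjusted p = 0.000185) for tip minus stalk. The other Hoxd13 probe set gave 0.61 and -0.985 for these contrasts. For tip minus mesenchyme that set gave only -0.38, against -1.08 for the reported set. The stalk minus mesenchyme call was lost without any 1 of the 4 stalk and mesenchyme arrays and with trend and robust variance.

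Of the 4 measured central genes of cluster B, Hoxb4 and Hoxb6 were higher in tip than in mesenchyme, and Hoxb5 and Hoxb7 were not called there. Hoxb6 had 10.21 and 10.09 in tip, 9.16 and 9.16 in stalk and 8.86 and 8.72 in mesenchyme, with both tip arrays above all others and a tip minus mesenchyme difference of 1.36 ± 0.13 (adjusted p = 0.000237). Hoxb4, known for expansion of blood stem cells, had 8.83 and 8.41 in tip, 7.77 and 7.64 in stalk and 7.60 and 7.08 in mesenchyme and a difference of 1.28 ± 0.21 (adjusted p = 0.00476). Hoxb2 and Hoxb5 were called only for tip minus stalk, at 0.72 ± 0.13 (adjusted p = 0.00957) and 0.77 ± 0.15 (adjusted p = 0.0144). Hoxb3 was not called in that contrast (0.51 ± 0.13, adjusted p = 0.0525), but passed with centred arrays (adjusted p = 0.0227), without the dimmest genes (0.025), with the mean of its probe sets (0.0177) and under trend and robust variance (0.000725). Of the other members with several probe sets, those of Hoxa3 differed in sign between sets (1 set at -1.58 for tip minus mesenchyme) and its reported set was not called. Hoxb9 stayed between 7.97 and 8.25 on the 6 tissue arrays.

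Hoxb7, whose promoter is widely used to drive transgenes in the ureteric bud, had 3.96 and 4.24 in tip, 4.02 and 3.88 in stalk and 3.86 and 4.08 in mesenchyme. These values lay between 3.86 and 4.24, far below the array medians, and no contrast was called. The probe set shared by Hoxb8 and Hoxb7 read 10.64 and 10.27 in tip, 9.36 and 9.46 in stalk and 8.61 and 8.53 in mesenchyme, in 3 separate groups. It cannot be assigned to either gene and was not in the fit. Hoxa13, Hoxb13 and Hoxc13 also lay below the array median on all 6 tissue arrays and were not called. With Hoxa3 and Hoxa7, which lay between 6.36 and 7.68, and with Hoxb3 and Hoxb9, they and Hoxb7 make up the 8 members called in no contrast, with absolute differences of at most 0.53. Some of these passed for tip minus mesenchyme under other settings: Hoxa3 with the mean of its probe sets (-0.53, adjusted p = 0.0168) and without tip replicate 2 (-0.81, adjusted p = 0.00948), Hoxa7 without the dimmest genes (adjusted p = 0.0371), and Hoxb3 with the mean of its probe sets (0.49, adjusted p = 0.0208) and under trend and robust variance (adjusted p = 0.0134).

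The stalk was compared with mesenchyme on its own, and fewer Hox genes passed. Of 33 genes 4 were higher in stalk and 6 lower, where 4.3% and 1.24% of all genes were (5.54% in either direction), and the median difference was -0.45 against -0.04 over all genes. The higher genes were Hoxd1, Hoxd3, Hoxd8 and Hoxd13. The lower genes were Hoxb1, Hoxc8 (-1.27 ± 0.21), Hoxc10 (-1.17 ± 0.24), Hoxc4 (-0.92 ± 0.13), Hoxc6 (-0.85 ± 0.19) and Hoxa9 (-0.84 ± 0.16), so 4 of the 6 belong to cluster C. Hoxa10, Hoxa11, Hoxd10 and Hoxd11 had differences of -0.61, -0.55, -0.58 and -0.69, which did not pass. Other settings called more genes: 16 were lower with the replicate number as a block, 13 with trend and robust variance, 12 when only these 2 groups were fitted and 10 with the mean of all probe sets. Under the block Hoxa10, Hoxa11, Hoxd10 and Hoxd11 passed, with limma adjusted p of 0.0181, 0.0115, 0.0179 and 0.00293. The count of lower genes was 3 without stalk replicate 1, 1 without stalk replicate 2, 3 without either mesenchyme array and 12 without either tip array, and that of higher genes was 2 without stalk replicate 1 or mesenchyme replicate 2. The calls of Hoxa9, Hoxc6 and Hoxc10 were lost without any 1 of the 4 stalk and mesenchyme arrays, that of Hoxc6 also with centred arrays, that of Hoxc4 without stalk replicate 2, that of Hoxc8 without stalk replicate 2 or mesenchyme replicate 1, and that of Hoxd3 without stalk replicate 1 or mesenchyme replicate 2.

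The tip was then set against the stalk. Of 33 Hox genes 12 were lower in tip and 7 higher, where 6.97% and 2.86% of all genes were (9.83% in either direction), and the median difference was -0.35 against 0.07 over all genes. The lower genes were Hoxa2, Hoxa5, Hoxa9, Hoxa10, Hoxa11, Hoxc4, Hoxc8, Hoxc10 and Hoxd10 to Hoxd13, led by Hoxd12 at -2.74 ± 0.18 (adjusted p = 8.62e-05) and Hoxa10 at -2.68 ± 0.17 (adjusted p = 7.93e-05). All 12 were also lower in tip than in mesenchyme, a comparison that shares the tip arrays. The higher genes were Hoxb2, Hoxb4, Hoxb5, Hoxb6, Hoxd1, Hoxd8 and Hoxd9, between 0.61 and 0.99. The higher count was 2 without stalk replicate 1 and 1 without stalk replicate 2: Hoxb2, Hoxb4, Hoxb5, Hoxd8 and Hoxd9 lost their call without either, Hoxd1 without replicate 2, and Hoxb4 also without tip replicate 1. Hoxa2 lost its call without either tip array or stalk replicate 1. Centring the arrays on their medians raised all tip minus stalk differences by 0.12, which gave 8 higher and 12 lower Hox genes; over all genes it gave 1024 higher and 1085 lower, against 521 and 1268.

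Of the 17 genes lower in tip than in mesenchyme, 13 had a stalk mean nearer to mesenchyme, and 4 (Hoxa4, Hoxb1, Hoxc6 and Hoxc9) one nearer to tip. Of the 6 higher in tip, Hoxd1, Hoxd3 and Hoxd8 had a stalk mean nearer to tip. The stroma markers ran alongside, with 7 of 7 lower in tip than in stalk (median -3.50) and 1 higher, 2 lower and 4 not called in stalk against mesenchyme (median 0.22). Of the 4 ureteric mesenchyme markers, 3 were lower in tip than in stalk. So were 7 of 8 nephron progenitor markers (median -1.23), 5 of 5 of endothelium (median -1.37) and 3 of 4 of blood and macrophages (median -1.40). Over all genes 6.97% were lower in tip than in stalk. The part of all these markers in the Hox values of the stalk was not tested.

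**Figure D3:**
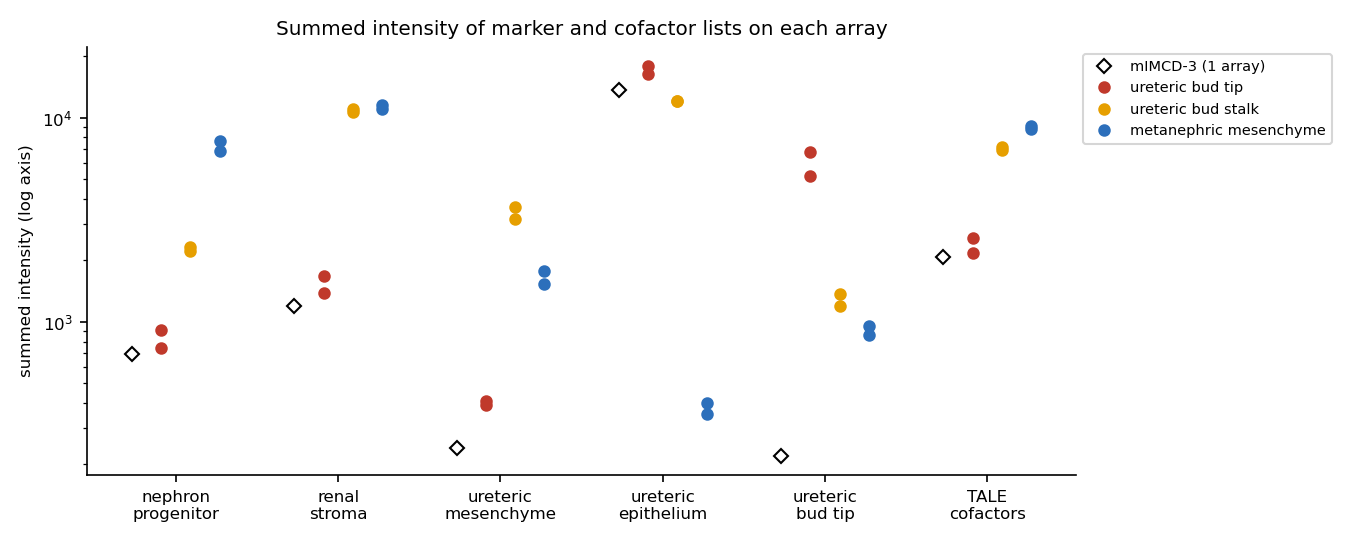
Summed linear intensity (log axis) of 5 marker lists and of the TALE cofactor list on each array; the diamond is mIMCD-3, and the dots are tip, stalk and mesenchyme, left to right. Stroma markers sum to 1379 to 1673 in tip, 10685 to 11057 in stalk and 10984 to 11492 in mesenchyme, and TALE cofactors to 2180 to 2563, 6976 to 7179 and 8769 to 9053.

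Genes that work with Hox proteins were examined as lists. Of 8 measured TALE cofactors 5 were lower in tip than in mesenchyme and 0 higher, with a median of -1.38. Over all genes 8.37% were lower and 7.38% higher. Meis1 had 6.61 and 5.99 in tip, 9.92 and 9.81 in stalk and 10.37 and 10.25 in mesenchyme, a difference of -4.01 ± 0.20 (adjusted p = 1.23e-05). Meis2 had 8.73 and 8.41 in tip, 11.71 and 11.68 in stalk and 12.19 and 12.24 in mesenchyme, a difference of -3.65 ± 0.15 (adjusted p = 4.89e-06). Both tip arrays lay below every stalk and mesenchyme array for both genes. Meis3 (-2.12), Pbx3 (-1.32) and Pknox2 (-1.44) were lower too, and the same 5 were lower in tip than in stalk (the Meis3 call there, adjusted p = 0.0458, was lost without any 1 stalk or mesenchyme array, with centred arrays and in the fit on the 2 groups compared, with adjusted p between 0.0507 and 0.165). In stalk against mesenchyme 0 of 8 passed in limma, with 0 higher and 2 lower if p under 0.05 was left unadjusted, and Meis2 (-0.52) and Meis3 (-0.88) passed when only these 2 groups were fitted. Over all genes 6.97% were lower in tip than in stalk, and 1.24% were lower and 4.3% higher in stalk than in mesenchyme. Pbx2, Pbx4 and Pknox1 were within 0.21 of mesenchyme in tip and in stalk.

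Of the Hox11 partners and targets, 4 of 5 were measured by a probe set of their own. All 4 were lower in tip than in mesenchyme, where 8.37% of all genes were. These 4 are also among the 8 nephron progenitor markers used above to check the dissection, so their decrease repeats that check and is not a separate result. Eya1 had 7.05 and 6.56 in tip, 9.09 and 8.98 in stalk and 11.17 and 11.23 in mesenchyme, Six2 6.80 and 6.86 in tip, 7.58 and 7.63 in stalk and 9.88 and 9.84 in mesenchyme, and Gdnf, the ligand that attracts the bud, 6.10 and 5.87 in tip, 7.09 and 7.16 in stalk and 8.91 and 8.71 in mesenchyme. Their tip minus mesenchyme differences were -4.40 ± 0.18 (adjusted p = 5.31e-06), -3.03 ± 0.12 (adjusted p = 4.89e-06) and -2.83 ± 0.14 (adjusted p = 1.19e-05). In stalk these 3 were lower than in mesenchyme as well, with differences of -2.17, -2.26 and -1.69. Itga8, an integrin of the mesenchyme, had 6.79 and 6.24 in tip, 9.58 and 9.41 in stalk and 10.05 and 9.75 in mesenchyme and was called in tip (-3.38 ± 0.21, adjusted p = 2.55e-05) and not in stalk (-0.40 ± 0.21, adjusted p = 0.508).

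Upstream regulators of the clusters were also examined. Of 13 Cdx and chromatin genes, including the Polycomb genes Ezh2, Eed, Suz12, Bmi1 and Rnf2, 0 passed in limma in any of the 3 contrasts, with differences between -0.35 and 0.51, and with p under 0.05 left unadjusted 1 higher and 0 lower (tip minus mesenchyme), 0 higher and 0 lower (stalk minus mesenchyme) and 2 higher and 0 lower (tip minus stalk). Under other settings at most 1 passed, and in tip against stalk Cbx2 (0.51) was nearest to the threshold. Cdx1, Cdx2 and Cdx4 lay below the array median on every array, so a change in them could have been missed. Of 12 genes that flank the clusters, 1 was higher in tip than in mesenchyme and 0 lower, with a median of 0.08. That gene was Skap1, beside Hoxb1, with 6.53 and 6.26 in tip, 4.85 and 5.20 in stalk and 4.72 and 5.08 in mesenchyme. This 1 of 12 compares with the 7.38% of all genes that were higher. The other 11 had tip minus mesenchyme differences between -0.47 (Smug1) and 0.36 (Mtx2) that did not pass. Skap1 and, among these 11, Evx1, Evx2, Ttll6 and Calcoco2 lay below the array median on every array, where folds are compressed. Over the alternatives 0 to 4 of the flanking genes were called higher and 0 to 3 lower, with 4 higher under trend and robust variance and 3 lower (Smug1, Skap2 and Calcoco1) under the replicate block. In stalk against mesenchyme 0 of 12 passed in limma, with 0 higher and 0 lower if p under 0.05 was left unadjusted.

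mIMCD-3 differed from the ureteric bud most in cluster D, whose genes were all lower than the mean of tip and stalk, and in single genes of the other clusters. Past 1 log2 unit from the mean of the 4 bud arrays, 12 of 33 Hox genes were lower in mIMCD-3 and 4 higher, where 9.33% and 9.75% of all genes were. There is no replicate of the line and so no test. All 8 measured genes of cluster D were lower than the bud mean, between -1.66 and -4.97, and 0 of 8 lay above the array median in mIMCD-3, against 5 on both tip arrays, 7 on both stalk arrays and 5 on both mesenchyme arrays. The other probe set of Hoxd13 gave -0.86, inside the limit of 1 log2 unit. In cluster C 4 of 7 were lower and 0 higher. Hoxc5 was among the lower genes at -1.76, but its other probe sets gave 0.01 and -0.38. In clusters A and B 0 of 18 were lower and 4 higher, with Hoxb3 just inside the limit at -0.999. The probe set shared by Hoxb8 and Hoxb7, not among these 18, read 8.41 in mIMCD-3, -1.52 from the bud mean. Hoxb7's own probe set read 3.87 in mIMCD-3 and was far below the array medians in the tissues as well.

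Tip and stalk differ for many of these genes, so the line was also set against each alone, a choice made after seeing the data. Against tip, 9 of 33 were lower and 6 higher (all genes 8.38% and 10.1%), with 6 of 8 in cluster D; against stalk, 14 were lower and 5 higher (all genes 10.3% and 9.8%), with 8 of 8 in cluster D. Hoxd12 and Hoxd13 differed from tip by -0.29 and -0.79, and Hoxc4 and Hoxc8 by -0.81 and -0.92, so these 4 were past 1 log2 unit against the bud mean through the stalk arrays. Hoxd9 was the lowest against tip (-5.27) and Hoxd10 against stalk (-5.99).

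Within cluster D, Hoxd9 read 5.73 in mIMCD-3, against 11.06 and 10.95 in tip and 10.40 and 10.40 in stalk, a difference of -4.97 from the bud mean. Hoxd10 read 3.92, with a difference of -4.76. Hoxd1 read 3.64 (-4.39), Hoxd8 6.33 (-4.34), Hoxd3 4.55 (-3.40) and Hoxd11 3.92 (-3.01). In each case mIMCD-3 lay below all 4 bud arrays, and the 2 probe sets shared by Hoxd4 and Hoxd3 read 5.79 and 3.99. In cluster C, Hoxc10 read 4.22, a difference of -3.55.

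The higher genes were posterior or central members of clusters A and B. Hoxb13, which in the mouse acts in the tail, colon and prostate, read 8.07 in mIMCD-3, against 4.32 and 4.16 in tip and 4.22 and 4.32 in stalk. It lay below the array median on the 6 tissue arrays and above it in mIMCD-3, a difference of 3.82 from the bud mean. Hoxa9 read 11.80 in mIMCD-3, against 8.72 and 8.33 in tip and 10.83 and 10.73 in stalk, a difference of 2.15. The other Hoxa9 probe set gave 1.09. Hoxb9 (1.51) and Hoxa7 (1.30) were the other 2. Hoxa10 read 9.05 and Hoxa11 7.39, in both cases between the tip and the stalk arrays, and Hoxb6 read 10.39, above all 4 bud arrays. The TALE cofactors summed to 2068 in mIMCD-3, against 2180 to 2563 in tip and 6976 to 7179 in stalk. Different genes made up these sums: Pbx3 read 9.97 in mIMCD-3 against a tip mean of 8.62, and Meis1 4.45 against 6.30. Past 1 log2 unit from the bud mean, 4 of the 8 cofactors were lower in mIMCD-3 and 0 higher. Renal stroma markers summed to 1188 in mIMCD-3, against 1379 to 1673 in tip and 10685 to 11057 in stalk. Past 1 log2 unit from the bud mean, 6 of these 7 markers were lower in mIMCD-3 and 1, Foxd1, was higher. Foxd1 read 9.57 in mIMCD-3, 1.42 above the bud mean, and so made up much of the sum. The part of these markers in the Hox differences was not tested.

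**Figure D4:**
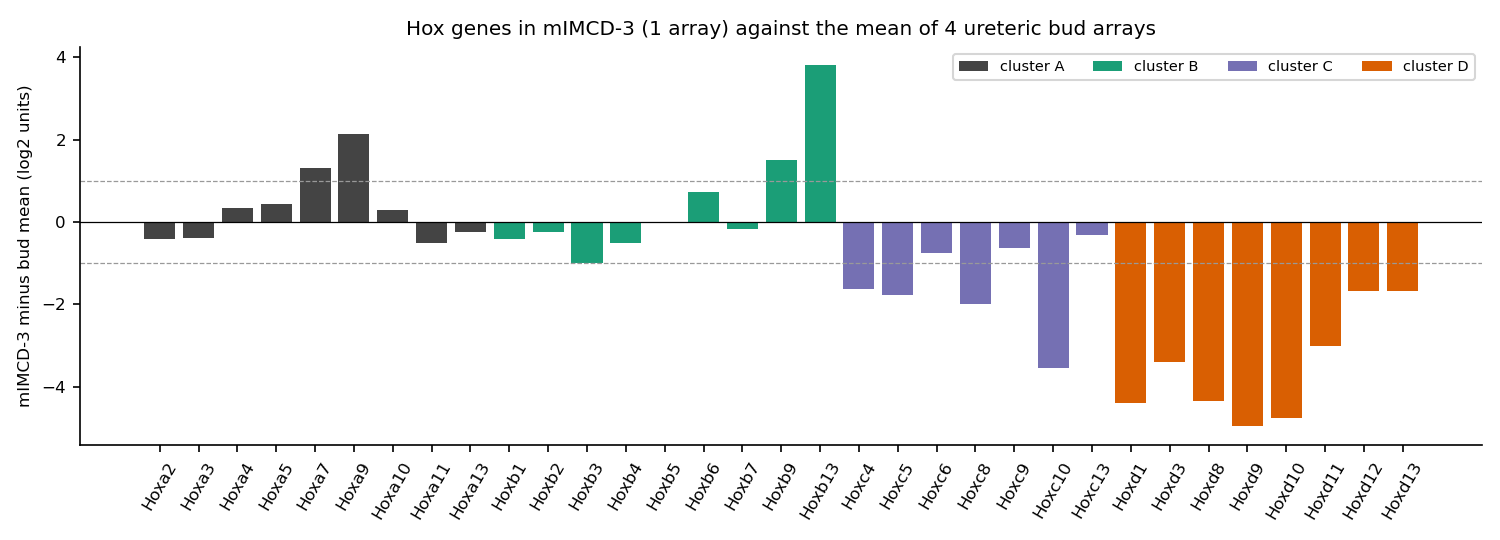
mIMCD-3 (1 array) minus the mean of the 4 ureteric bud arrays for each Hox gene in log2 units, coloured by cluster, with dashed lines at 1 and -1. All 8 bars of cluster D lie below -1, down to -4.97 for Hoxd9, and Hoxb13 stands at 3.82.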

How the data were processed

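The authors deposited RMA values (background correction, quantile normalisation and probe set summary over all 7 arrays together) as intensity on a linear scale, per the labels and the submitters' processing notes; software and genome build are not given in the sources used here. Intensities ran from 5.08 to 19587 and were taken to log2. Of 45101 probe sets, 64 controls were left out, 34945 list 1 gene and 932 several; each of 18193 genes was read from its brightest probe set listing it alone. The tissue arrays were fitted with limma 3.58.1 (R 4.3.3; lmFit, eBayes, two-sided, 3 residual degrees of freedom, Benjamini-Hochberg over all genes), after the code was tested on simulated data. mIMCD-3 was described by size.

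The Hox members, the gene lists and the marker lists were chosen with earlier results of these data known. Values on every array are given for at most 20 called members with the largest difference, Hox10 and Hox11 paralogues, Hoxb7, and members over 2 log2 units from the bud in mIMCD-3. Alternatives were the replicate number as a block, trend and robust variance, median centring, a filter on dim genes (40%), the mean of probe sets, a fit on the 2 groups compared, and leaving out each array. Leaving out an array of the group outside a contrast gives the same fit as that on the 2 groups compared. For each contrast these settings are therefore 1 alternative and not separate ones. Promoters are RefSeq windows; figures were drawn with matplotlib 3.10.9.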

Additional observations from a re-analysis of the deposited data

How the results depend on the processing

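Tip minus mesenchyme was the steadiest contrast: all 23 Hox calls passed under every alternative in which the gene was tested, with 12 of 19 for tip minus stalk and 3 of 10 for stalk minus mesenchyme (Hoxb1, Hoxd1 and Hoxd8). No tested difference changed sign among the alternatives for called genes. The count of Hox genes lower in stalk than in mesenchyme, 6 as reported, was 16 with the replicate number as a block, 13 with trend and robust variance, 10 with the mean of all probe sets and 12 in the fit on the 2 groups compared, and 1 to 12 when an array was left out. The count higher in stalk than in mesenchyme (4) was 2 to 4, and that higher in tip than in stalk (7) was 1 to 7, when an array was left out. For mIMCD-3, 16 Hox genes lay past 1 log2 unit from the mean of both bud compartments, 15 from tip alone and 19 from stalk alone, a comparison chosen after seeing the data. The labels do not say that a replicate number marks a shared dissection; the replicate differences correlated across genes at 0.568 for tip and mesenchyme, 0.391 for stalk and mesenchyme and 0.434 for tip and stalk, and the block lost no Hox call. Over all genes the block called 2037 higher and 2331 lower for tip minus mesenchyme, 1231 and 577 for stalk minus mesenchyme and 1623 and 2131 for tip minus stalk, against 1342 and 1523, 782 and 225, and 521 and 1268. The cause was not tested. With 2 arrays a tissue and 3 residual degrees of freedom, genes not called are not shown to be alike, and dim probe sets have compressed differences.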

Other observations

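Antisense and shared probe sets of the clusters were read beside the members. Hoxb5os, antisense in cluster B, read 10.09 and 9.91 in tip, 10.11 and 10.05 in stalk and 10.14 and 10.16 in mesenchyme and read 9.05 in mIMCD-3, and Hoxd3os1 averaged 7.92, 7.44 and 7.87 with 4.73 in mIMCD-3; neither was called between tissues. Hoxb5os and Hoxd3os1 were thus lower in mIMCD-3 than on every tissue array, like the 8 measured genes of cluster D. This was not confined to cluster D: of 33 Hox genes, 18 lay below all 4 bud arrays in mIMCD-3. No share over all genes is given here. The other Hoxd3os1 probe set gave -1.09 for mIMCD-3 minus the bud mean, against -2.95 for the reported set. Of 11 members with several probe sets, 9 had sets of 1 sign for tip minus mesenchyme, the exceptions being Hoxa10 and Hoxa3. For stalk minus mesenchyme 8 had sets of 1 sign, and for tip minus stalk 8. For mIMCD-3 minus the bud mean only 6 did, the exceptions being Hoxa3, Hoxa4, Hoxa5, Hoxb3 and Hoxc5.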
